A study of Homo sapiens with 6 samples.

Results

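The 55 genes described here encode factors that make ribosomes in the nucleolus. They were chosen by name from a fixed list, and each gene's value was read from the row with that symbol, so that 55 of the 17787 symbols listed in the series are covered. The 6 RNA-seq libraries come from A549, an established line of human lung carcinoma cells. By their titles, 3 libraries are siNC and 3 are siFOXD3, named for RNA interference, a knockdown of messenger RNA by short double-stranded RNA, against the forkhead transcription factor FOXD3. siNC, whose meaning is not written out, was taken as the control, and dose, time after transfection and number of cultures are not stated. The p-values below therefore measure only the spread between these libraries, which may be technical. Levels are in FPKM, fragment counts divided by the length of the transcript and the size of the library, so they can be compared between genes and are relative to the rest of each library.

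Ribosomes are assembled in the nucleolus, where RNA polymerase I transcribes a long precursor that is cut, chemically modified and folded into the RNAs of both subunits. Small nucleolar ribonucleoproteins (snoRNPs) guide the modifications. The small-subunit processome builds the precursor of the 40S subunit, and a separate set of factors builds the 60S subunit. In growing and dividing cells, carcinoma lines included, the genes for these factors are transcribed strongly, and the transcription factor MYC is a known activator of many of them.

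In siFOXD3, 52 of the 55 factors rose, 1 fell and 2 did not pass the test (limma, Benjamini-Hochberg adjusted over all 12555 genes tested). Over all genes tested, 65.9% were called, 27.2% higher and 38.7% lower. The median log2 fold change of the 55 was 0.68, a median ratio of 1.66, beside -0.08 for all genes tested. By at least 1 on the log2 scale, 16 of the 55 rose, where 1.74% of all genes did, and none of the 55 fell by that much, where 5.97% of all genes did. Between siNC and siFOXD3 there was no overlap for 53 factors, and this was so for 70.7% of all genes tested in either direction (29.6% higher). Every factor passed the filter on low values, and the lowest value of any of them in any library was 2.43 FPKM, for UTP20 in siNC replicate 1. The median within-group SD of the 55 was 0.08 on the log2(FPKM + 1) scale.

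The FPKM of the 55 factors summed to 1905, 1909 and 1864 in siNC replicates 1 to 3 and to 3250, 3304 and 3231 in siFOXD3 replicates 1 to 3, a ratio of 1.72 between the group means. The siFOXD3 sums were all above the siNC sums. These genes took 0.304% to 0.316% of all FPKM in the siNC libraries and 0.5375% to 0.543% in the siFOXD3 libraries. The order of the factors by level was largely kept, with a Spearman correlation of 0.93 between the siNC and siFOXD3 means across the 55 genes, which share their libraries. The size of the change did not follow the starting level (Spearman correlation 0.02 between the siNC mean and the log2 fold change). In bulk RNA a change in the share of cells of a type and a change in RNA per cell cannot be told apart.

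**Figure D1:**
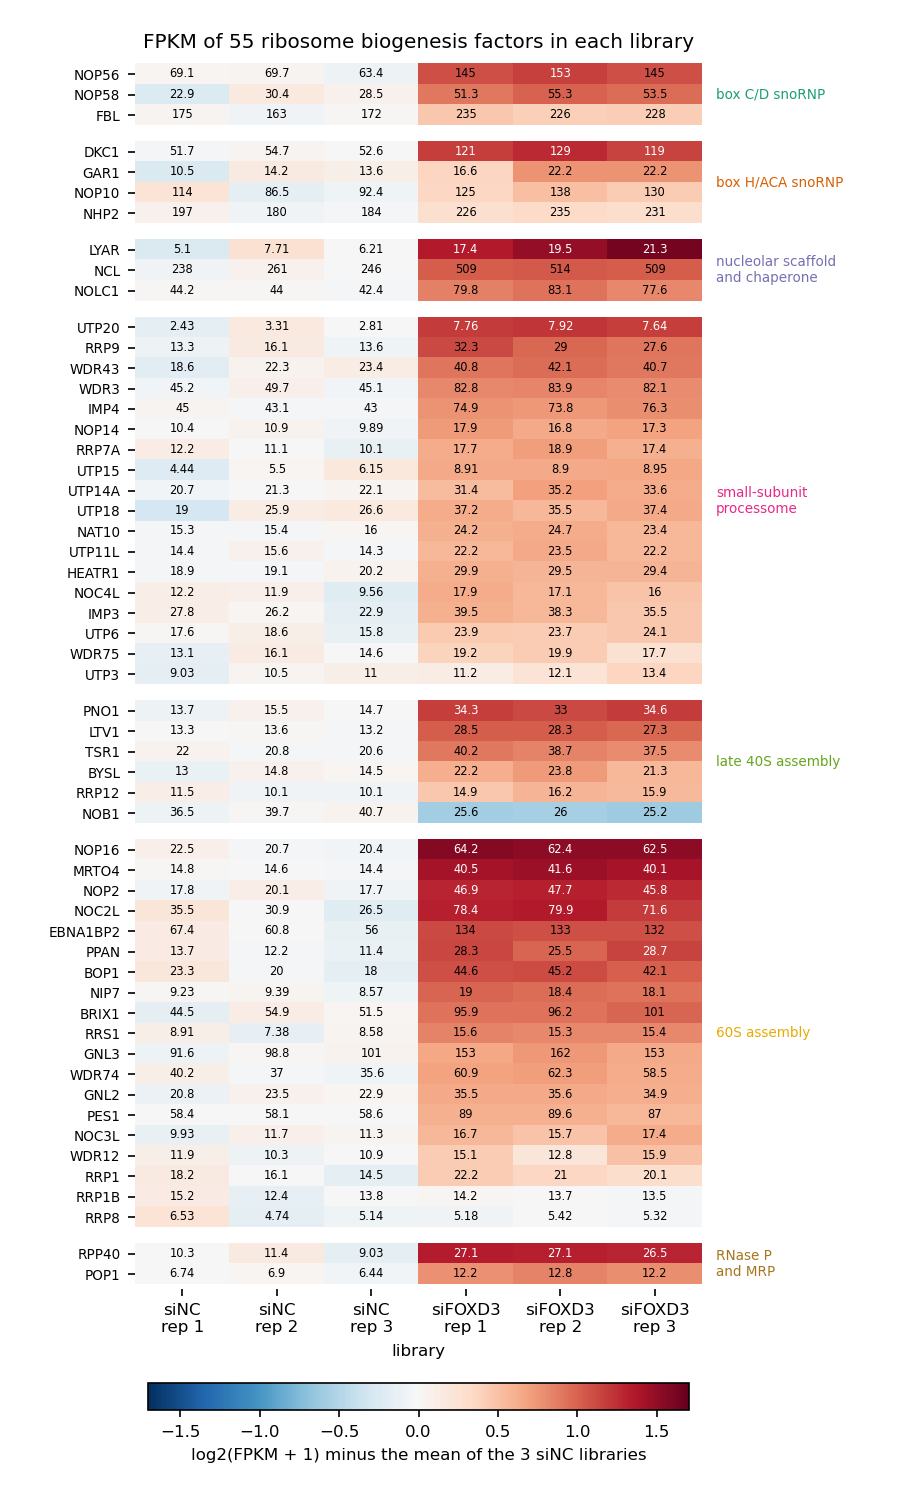
Each row is a factor and each column a library; the number in a cell is its FPKM and the colour is its log2(FPKM + 1) minus the mean of the 3 siNC libraries, with rows grouped by role. NOB1 is the bluest row across the 3 siFOXD3 libraries, at 25.2 to 26.0 FPKM, in a shade well short of the end of the scale.

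**Figure D2:**
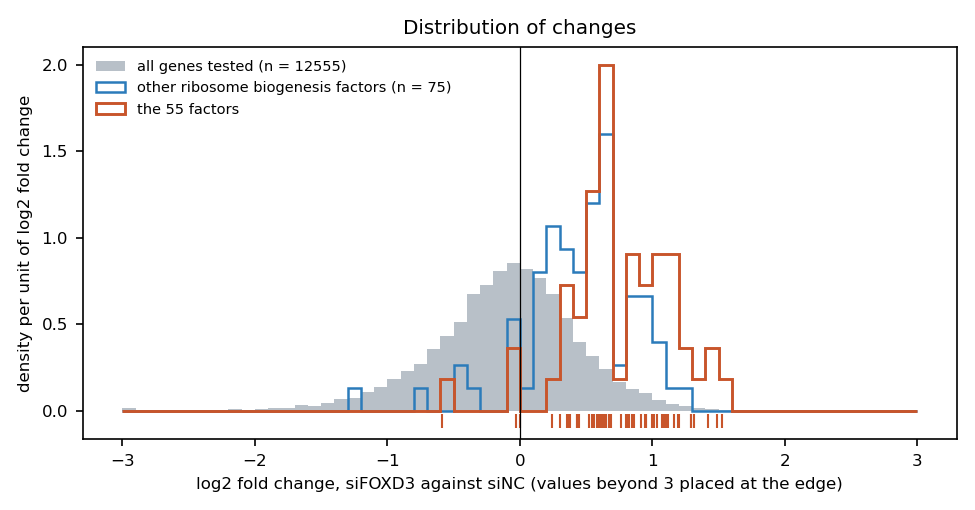
Histogram, as density, of log2 fold changes for all 12555 genes tested (grey), for 75 other ribosome biogenesis factors (blue line) and for the 55 factors (orange line, with 1 tick per gene below). The 55 have a median of 0.68, beside 0.52 for the other factors and -0.08 for all genes.

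The labelled groups were checked first. FOXD3 itself was barely detected: its values were 0.152, 0.291 and 0.134 FPKM in siNC, and of the siFOXD3 libraries only replicate 2 lists it, at 0.0749 FPKM, so that it was below the filter for testing. The protocol text of the labels names retina as the source, while the cell type label names A549. All 8 epithelial markers were at 1 FPKM or more. Of them, 3 were called higher (KRT8, KRT18 and EPCAM) and 4 lower (KRT7, CDH1, CLDN4 and MUC1). These are 37.5% and 50%, beside 27.2% and 38.7% of all genes tested. The list, mostly keratins, summed to 6995 to 7996 FPKM in siNC and 8969 to 9051 FPKM in siFOXD3. The 12 photoreceptor markers summed to 1.68 to 2.17 FPKM in siNC and 2.51 to 3.52 FPKM in siFOXD3, and 4 of them were in no library. The 8 leukocyte markers summed to 74.3 to 84.6 FPKM in siNC and 67.4 to 68.4 FPKM in siFOXD3, nearly all of it CD68, which many cells other than leukocytes express, while the 6 fibroblast markers (3.61 to 4.56 and 2.96 to 3.58 FPKM) and the 5 endothelial markers (2.61 to 3.43 and 1.90 to 2.18 FPKM) were low. The part of these markers in the results below was not tested. Steps between low values put the depth at an estimated 7.68e+06 to 8.44e+06 fragments per library, at which the least covered factor, LYAR, had an estimated 54 fragments in its lowest library, a counting error of 13.7%.

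Because these genes moved together, the sequence around their start sites was searched for the letters CACGTG, the E-box bound by MYC with its partner MAX. Windows of 300 bases (250 before and 50 after the annotated start, RefSeq, GRCh38.p14, both strands searched) were at hand for 48 of the 55 factors. CACGTG was in a window of 22 of these (45.8%), in 30.8% of 65 other ribosome biogenesis factors, in 12.7% of 9779 protein-coding genes tested and in 7.26% of all 35116 windows. A split of the windows at the start base was chosen after the data were seen. The shares differed more close to the start. In 17 of the 48 factors (35.4%) a copy ended at or after the start base, and this was so for 15.4% of the other factors, 1.92% of the protein-coding genes tested and 1.05% of all windows. In the 250 bases before the start alone, 16.7% of the 48 factors and 11.3% of the protein-coding genes tested had one. A gene was counted if any of its windows held the motif, while the share of all windows counts each window singly. Shares of genes and of windows are therefore in unlike units, for this motif and those below. These are matches of letters, and no binding was measured here.

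Of the 20 factors with a copy that had 12 bases of window on each side, the 8 with the largest rise are shown as 30 bases each, 5′ to 3′ on the gene's strand, with the motif in capitals. They show the motif within different flanks. NOP2 also had CACGTG and rose more than most of these, but its copy lacked such flanks and is not shown.
LYAR: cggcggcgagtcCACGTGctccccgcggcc
MRTO4: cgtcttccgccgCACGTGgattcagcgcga
UTP20: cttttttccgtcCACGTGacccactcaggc
PNO1: ggtgcagctgcgCACGTGtttcagccggca
EBNA1BP2: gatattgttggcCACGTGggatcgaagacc
LTV1: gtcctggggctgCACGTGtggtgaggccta
RRP9: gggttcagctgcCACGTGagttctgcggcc
WDR43: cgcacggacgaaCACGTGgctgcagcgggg

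In GRCh38.p14 these stretches are chr4:4290068-4290097 (minus strand) for LYAR, chr1:19251807-19251836 (plus) for MRTO4, chr12:101280083-101280112 (plus) for UTP20 and chr2:68157885-68157914 (plus) for PNO1. Those of the other 4 are chr1:43172790-43172819 (minus) for EBNA1BP2, chr6:143843354-143843383 (plus) for LTV1, chr3:51941892-51941921 (minus) for RRP9 and chr2:28894658-28894687 (plus) for WDR43. Counting the start base as 1, the motif began at base 4 in WDR43, 10 in PNO1, 15 in MRTO4 and 29 in LTV1. It began 5 bases before the start in RRP9, 10 before in UTP20, 64 before in LYAR and 237 before in EBNA1BP2. Over the same 20 factors, the copy began at or after the start in 14 and before it in 6.

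Factors with and without the motif had similar medians, and nearly all in both sets were called higher. The median log2 fold change was 0.68 for the 22 factors with CACGTG and 0.65 for the 26 without. The lower quartiles were 0.62 and 0.39. All 22 with it were called higher, as were 24 of the 26 without, where 1 was lower. Of the other factors, 90% with it and 77.3% without were higher, and 0% and 9.09% lower. The medians of protein-coding genes tested were -0.03 with it (1244 genes) and -0.06 without it (8535 genes). Of these, 32.5% and 27.9% were higher and 35.1% and 37.95% lower. The part of the motif in these changes was not tested. The forkhead core TGTTTAC was in the window of 1 factor of 48 (2.08%), NOP14, where it began 54 bases before the start. It was in 6.15% of the other factors, 3.47% of protein-coding genes tested and 3.42% of all windows. NOP14 was also the one factor with the CGCG element, a palindrome of many housekeeping promoters, which was in 0.424% of all windows. This element was in 1.04% of protein-coding genes tested and 3.08% of the other factors. The ETS element CCGGAAGT was in 16.7% of the 48 factors, 10.5% of protein-coding genes tested and 4.14% of all windows. In the other ribosome biogenesis factors its share was higher still, at 26.2%. GGGCGG, the letters of SP1 sites, was in 75% of the factors and 78.01% of protein-coding genes tested (44.95% of all windows), and CCAAT in 39.6% and 42.95% (34.6% of all windows).

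The 3 listed genes for core proteins of the box C/D snoRNPs, which add methyl groups to ribosomal RNA, rose (beside 27.2% of all genes tested). NHP2L1, also known as SNU13, encodes a further core protein, is not among the 55 and was not called. It averaged 134 ± 6.18 FPKM (SD, n = 3) in siNC and 143 ± 2.67 FPKM in siFOXD3 (log2 fold change 0.10, limma, adjusted p = 0.0796). NOP56, a scaffold of the particle, was at 69.1, 69.7 and 63.4 FPKM in siNC and 145, 153 and 145 FPKM in siFOXD3, so that every siFOXD3 library was above every siNC library (log2 fold change 1.12 ± 0.05, SE, limma, adjusted p = 7.85e-08). Its paralog NOP58 was at 22.9, 30.4 and 28.5 FPKM in siNC and 51.3, 55.3 and 53.5 FPKM in siFOXD3 (0.95 ± 0.09). The methyltransferase FBL (fibrillarin) rose least of the 3, from 175, 163 and 172 FPKM to 235, 226 and 228 FPKM (0.43 ± 0.05). The partners therefore shifted in proportion: the ratio of NOP56 to FBL was 0.397 ± 0.0293 (SD, n = 3) in siNC and 0.6435 ± 0.0287 in siFOXD3, and that of NOP58 to FBL 0.161 ± 0.0286 and 0.233 ± 0.0133. The groups did not overlap in either ratio.

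The genes for the 4 proteins of the box H/ACA snoRNPs, which turn uridine into pseudouridine, also rose (beside 27.2% of all genes tested). The pseudouridine synthase DKC1 (dyskerin) went from 51.7, 54.7 and 52.6 FPKM to 121, 129 and 119 FPKM (a ratio of 2.32, limma, adjusted p = 4.98e-08). NHP2, a small RNA-binding partner and the most abundant of the 4, went from 197, 179.6 and 184 FPKM to 226, 235 and 231 FPKM (0.30 ± 0.05, adjusted p = 0.000289). GAR1, the subunit that joins late, went from 10.5, 14.2 and 13.6 FPKM to 16.6, 22.2 and 22.2 FPKM (0.63 ± 0.13). Its lowest siFOXD3 value stood only 2.41 FPKM above its highest siNC value. NOP10, the smallest subunit, averaged 97.6 ± 14.4 FPKM (SD, n = 3) in siNC and 131.1 ± 6.92 FPKM in siFOXD3 (0.43). The ratio of DKC1 to NHP2 was 0.284 ± 0.0214 in siNC and 0.534 ± 0.0180 in siFOXD3, that of DKC1 to NOP10 0.552 ± 0.0906 and 0.939 ± 0.0317, and that of DKC1 to GAR1 4.21 ± 0.603 and 6.16 ± 1.01. The groups did not overlap in any of these ratios.

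**Figure D3:**
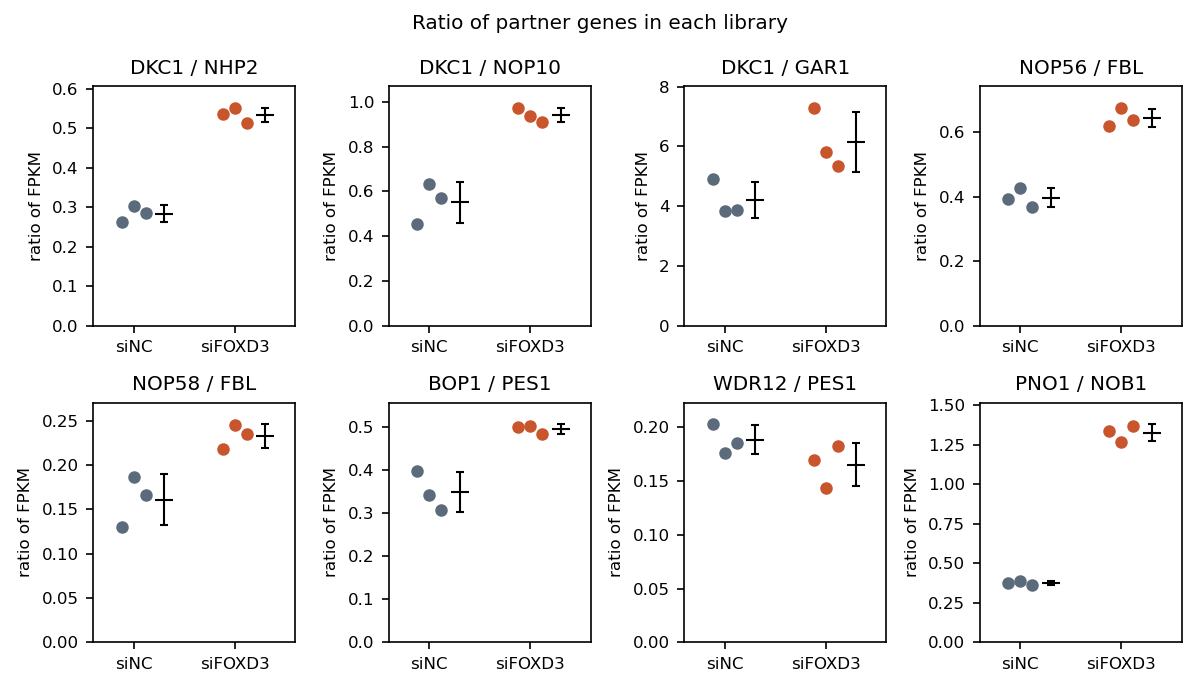
Ratio of the FPKM of 2 partner genes in each library (points) with the mean ± SD of the 3 libraries of a group (bars); each panel starts at 0. Among the 8 pairs the groups overlap for WDR12 over PES1, and PNO1 over NOB1 goes from 0.375 in siNC to 1.33 in siFOXD3.

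Among the nucleolar scaffolds and chaperones, NCL (nucleolin), an abundant binder of ribosomal DNA and RNA, had the highest level of the 55 in both groups. It stood at 238, 261 and 246 FPKM in siNC and at 509, 514 and 509 FPKM in siFOXD3, a ratio of 2.06 (log2 fold change 1.04 ± 0.04, limma, adjusted p = 5.25e-08). LYAR, a zinc finger protein of the nucleolus, rose from 5.10, 7.71 and 6.21 FPKM to 17.4, 19.5 and 21.3 FPKM (1.49 ± 0.12), the largest ratio of the 55 at 3.06. NOLC1 (Nopp140), a chaperone of snoRNPs, averaged 43.6 ± 0.973 FPKM in siNC and 80.2 ± 2.75 FPKM in siFOXD3 (0.87). No library of one group overlapped the other for any of the 3, as for 70.7% of all genes tested in either direction (29.6% higher).

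All 18 small-subunit processome genes rose (beside 27.2% of all genes tested), with a median log2 fold change of 0.62. UTP20, a very large scaffold protein with the lowest siNC level of the 55, went from 2.43, 3.31 and 2.81 FPKM to 7.76, 7.92 and 7.64 FPKM (1.19 ± 0.10, limma, adjusted p = 3.14e-06). RRP9, which binds the U3 snoRNA, went from 13.3, 16.1 and 13.6 FPKM to 32.3, 28.96 and 27.6 FPKM (1.00 ± 0.08). WDR43, a WD-repeat protein of the first subcomplex to bind the precursor, went from 18.6, 22.3 and 23.4 FPKM to 40.8, 42.1 and 40.7 FPKM (0.92 ± 0.08). In each of these 3 genes the siFOXD3 libraries lay well above all siNC libraries. WDR3, the most abundant processome gene here, went from 45.2, 49.7 and 45.1 FPKM to 82.8, 83.9 and 82.1 FPKM (0.82 ± 0.05), and IMP4, a partner of the U3 snoRNP, from 45.0, 43.1 and 43.0 FPKM to 74.9, 73.8 and 76.3 FPKM (0.77 ± 0.05).

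The other 13 processome genes changed by 0.24 to 0.69. The group means went from 10.4 to 17.3 FPKM for NOP14, from 11.1 to 18.0 for RRP7A, from 5.36 to 8.92 for UTP15 and from 21.4 to 33.4 for UTP14A. For UTP18, NAT10 (the acetyltransferase of 18S ribosomal RNA), UTP11L and HEATR1 they went from 23.8 to 36.7, 15.5 to 24.1, 14.8 to 22.7 and 19.4 to 29.6 FPKM. These 8 genes had ratios between 1.53 and 1.67. NOC4L (11.2 to 17.0 FPKM), IMP3 (25.6 to 37.8), UTP6 (17.3 to 23.9) and WDR75 (14.6 to 18.9) rose somewhat less. UTP3 changed least of the processome genes, from 9.03, 10.5 and 11.0 FPKM to 11.2, 12.1 and 13.4 FPKM (0.24 ± 0.09, adjusted p = 0.0342), and its groups were separated by 0.248 FPKM. Its call was lost with no filter on low values (adjusted p = 0.0582) and without siNC replicate 1 (0.0916), siFOXD3 replicate 2 (0.0718) or siFOXD3 replicate 3 (0.137), and in the test against a fold of 1.2 (0.956).

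**Figure D4:**
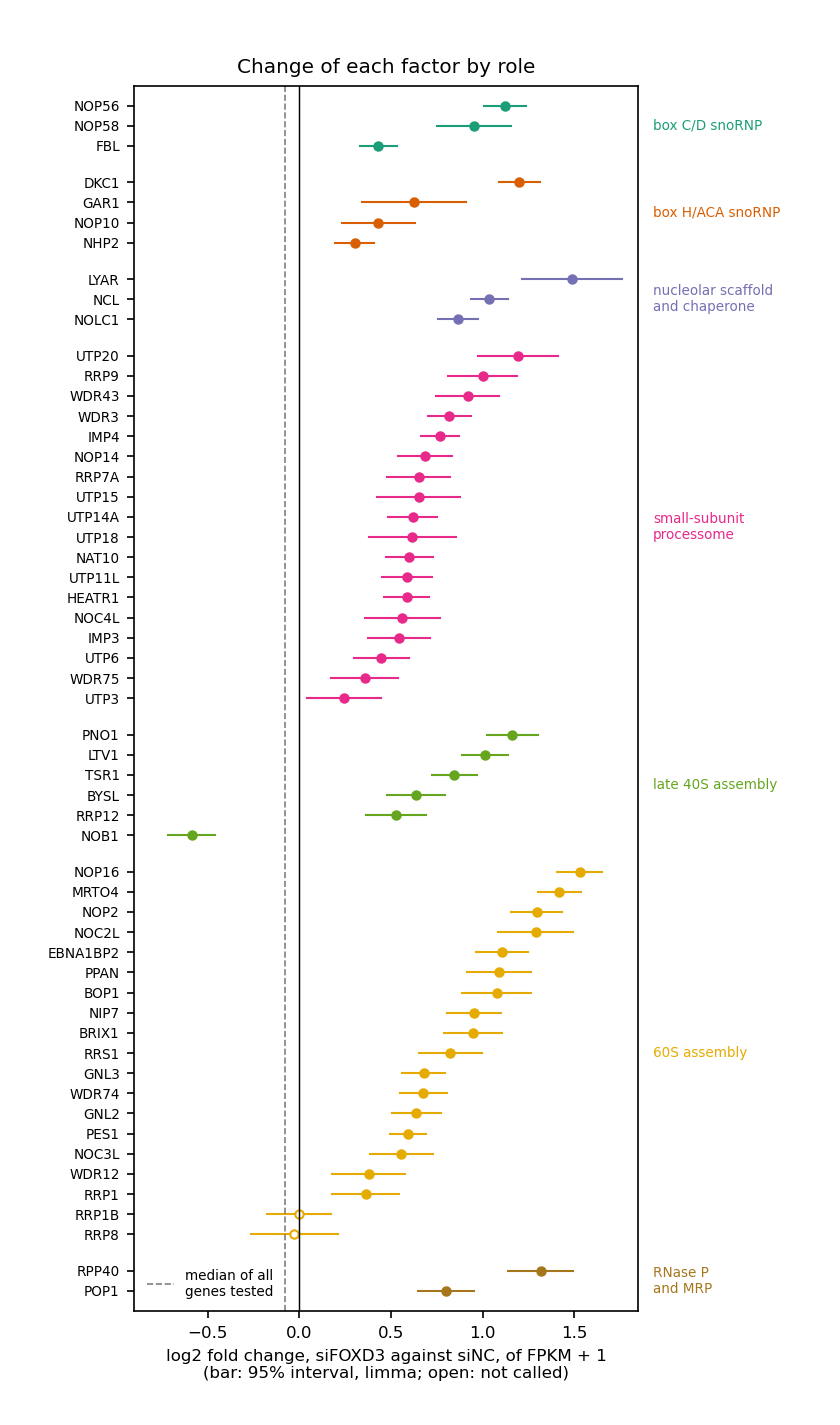
Log2 fold change of each factor (point) with its 95% interval from limma (bar), grouped by role and sorted within a role; open points did not pass the test. NOP16, LYAR and MRTO4 lie farthest to the right, the intervals of RRP1B and RRP8 cross 0, and NOB1 lies below 0.

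The genes for late maturation of the 40S subunit split in direction. PNO1, which holds the end of the immature 18S RNA, rose from 13.7, 15.5 and 14.7 FPKM to 34.3, 33.0 and 34.6 FPKM (log2 fold change 1.16 ± 0.06, limma, adjusted p = 2.03e-07). LTV1, which keeps the head of the pre-40S particle immature, rose from 13.3, 13.6 and 13.2 FPKM to 28.5, 28.3 and 27.3 FPKM (1.01 ± 0.06). NOB1, the endonuclease that makes the final cut of 18S RNA and that PNO1 blocks until then, fell from 36.5, 39.7 and 40.7 FPKM to 25.6, 26.0 and 25.2 FPKM, a ratio of 0.657 (-0.59 ± 0.06, adjusted p = 1e-05). No siFOXD3 value of NOB1 reached the lowest siNC value. NOB1 was the more abundant of this pair in all siNC libraries and PNO1 in all siFOXD3 libraries, with a ratio of PNO1 to NOB1 of 0.375 ± 0.0144 (SD, n = 3) and 1.33 ± 0.0537. TSR1 (21.2 to 38.8 FPKM), BYSL (14.1 to 22.4 FPKM) and RRP12 (10.6 to 15.7 FPKM), which act on the pre-40S particle as well, rose by 0.85, 0.64 and 0.53.

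Of 19 genes for the 60S subunit, 17 rose (89.5%, beside 27.2% of all genes tested) and 2 were not called. The median log2 fold change of the 19 was 0.82. NOP16 rose from 22.5, 20.7 and 20.4 FPKM to 64.2, 62.4 and 62.5 FPKM, a ratio of 2.97 (1.53 ± 0.05, limma, adjusted p = 2.25e-08). On the log2(FPKM + 1) scale this was the largest change of the 55, but LYAR was above NOP16 in 4 of 15 alternative analyses. MRTO4, a relative of the stalk protein P0 that holds its place on the immature subunit, rose from 14.8, 14.6 and 14.4 FPKM to 40.5, 41.6 and 40.1 FPKM (1.42 ± 0.05). NOP2, which methylates a cytosine of 28S RNA, rose from 17.8, 20.1 and 17.7 FPKM to 46.9, 47.7 and 45.8 FPKM (1.30 ± 0.06). The replicates of these 3 genes agreed closely, with an SD of at most 1.38 FPKM in either group. NOC2L, a relative of a yeast factor that travels with the pre-60S particle, rose from 35.5, 30.9 and 26.5 FPKM to 78.4, 79.9 and 71.6 FPKM (1.29 ± 0.09), and EBNA1BP2, a partner of BRIX1 and RRS1, from 67.4, 60.8 and 56.0 FPKM to 134, 133 and 132 FPKM (1.11 ± 0.06). GNL3 (nucleostemin), a GTPase and the most abundant gene of this role, rose from 91.6, 98.8 and 101 FPKM to 153, 162 and 153 FPKM (0.68 ± 0.05). All of these were without overlap between the groups, as were 70.7% of all genes tested in either direction (29.6% higher).

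The PeBoW complex, which processes the precursor of 28S RNA, is made of PES1, BOP1 and WDR12, and its genes rose unequally. BOP1 went from 20.4 ± 2.68 to 44.0 ± 1.63 FPKM (log2 fold change 1.08), PES1 from 58.4 ± 0.224 to 88.6 ± 1.36 FPKM (0.59) and WDR12 from 11.0 ± 0.802 to 14.6 ± 1.61 FPKM (0.38). The ratio of BOP1 to PES1 was 0.350 ± 0.0461 in siNC and 0.496 ± 0.0108 in siFOXD3, without overlap, while that of WDR12 to PES1 was 0.188 ± 0.0133 and 0.165 ± 0.0203 and overlapped. The pairs of partners were chosen after the values were seen and carry no test.

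The remaining 60S genes that rose had ratios of 1.30 to 2.22. PPAN went from 12.4 to 27.5 FPKM, NIP7 from 9.06 to 18.5, BRIX1 from 50.3 to 97.7 and RRS1 from 8.29 to 15.4 FPKM. WDR74 (37.6 to 60.6 FPKM), GNL2 (22.4 to 35.4), NOC3L (11.0 to 16.6) and RRP1 (16.2 to 21.1) followed with smaller changes. RRP1B, the paralog of RRP1, was at 15.2, 12.4 and 13.8 FPKM in siNC and 14.2, 13.7 and 13.5 FPKM in siFOXD3 (0.00 with a 95% interval of -0.18 to 0.17). RRP8, a methyltransferase of 28S RNA that also silences ribosomal DNA, was at 6.53, 4.74 and 5.14 FPKM in siNC and 5.18, 5.42 and 5.32 FPKM in siFOXD3 (-0.03 with an interval of -0.26 to 0.21). The groups overlapped for both genes, and the intervals exclude a rise as large as the median of the 55.

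The 2 listed subunits of RNase P and RNase MRP, enzymes that cut precursors of transfer and ribosomal RNA, rose as well. RPP40 went from 10.3, 11.4 and 9.03 FPKM to 27.1, 27.1 and 26.5 FPKM (log2 fold change 1.32 ± 0.08, limma, adjusted p = 4.17e-07) and the large subunit POP1 from 6.74, 6.90 and 6.44 FPKM to 12.2, 12.8 and 12.2 FPKM (0.80 ± 0.07). Among 8 other subunits of these enzymes, 6 passed the test as higher (75%, beside 27.2% of all genes tested). None passed as lower (beside 38.7% of all genes tested), and the median change was 0.51. POP5 (15.6 to 28.5 FPKM, 0.82) and POP4 (10.4 to 16.7 FPKM, 0.64) changed most, and RPP21 was the most abundant (44.1 to 56.4 FPKM, 0.35). The call of RPP21 was lost in 1 of 15 alternative analyses.

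The wider pathway was read from a list of 76 other ribosome biogenesis factors, of which 75 were tested. Of these, 61 were called higher (81.3%, beside 27.2% of all genes tested) and 5 lower (6.67%, beside 38.7%). The median log2 fold change was 0.52, and 5 rose by at least 1, where 1.74% of all genes did. NPM1 (nucleophosmin), the most abundant, rose from 1375 ± 59.0 to 1791 ± 59.9 FPKM (0.38). The processome gene CIRH1A, also known as UTP4, rose from 17.2 to 41.5 FPKM (1.22), and CCDC86 (1.16), URB2 (1.08) and PAK1IP1 (1.07) rose by 1 or more as well. The largest change in the other direction was in GLTSCR2, also known as NOP53, a late 60S factor, which fell from 195 ± 10.1 to 83.3 ± 3.38 FPKM (-1.21 ± 0.05, limma, adjusted p = 6.12e-08).

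The other 4 that fell also have known roles in late steps of the 60S subunit, a grouping made after the values were seen. RSL24D1, which holds a place on the pre-60S particle, fell from 85.0 ± 11.2 to 51.6 ± 2.67 FPKM (-0.70). The export adaptor NMD3 fell from 39.5 ± 5.70 to 28.6 ± 1.33 FPKM (-0.44), the GTPase EFTUD1, also known as EFL1, from 10.2 ± 0.309 to 7.37 ± 0.105 FPKM (-0.42) and ZNF622, a cytoplasmic factor, from 47.7 ± 1.24 to 36.9 ± 0.996 FPKM (-0.36). The calls of NMD3, EFTUD1 and ZNF622 were each lost in 1 of 15 alternative analyses. In the test against a fold of 1.2, 2 factors of the list were called lower, beside 5 in the main analysis. Other factors of late 60S steps in the list did not fall: SBDS, the partner of EFTUD1, was at 35.4 ± 2.74 and 39.9 ± 1.18 FPKM (0.17, adjusted p = 0.0356, a call lost in 9 of 15 alternative analyses), and EIF6, which the pair removes from the 60S subunit, at 187 ± 1.149 and 195 ± 4.41 FPKM (0.06, adjusted p = 0.23).

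Other steps of the pathway had smaller medians. Of 14 genes of the RNA exosome, which trims ribosomal precursors, 10 were called higher (71.4%) and 1 lower (7.14%). Over all genes tested these shares were 27.2% and 38.7%. The median change of the 14 was 0.26. EXOSC2 (12.8 to 22.6 FPKM, log2 fold change 0.78) and its cofactor MPHOSPH6 (4.47 to 8.04 FPKM, 0.73) rose most, EXOSC7 was the most abundant (39.4 to 45.4 FPKM) and EXOSC1 fell from 33.6 to 27.9 FPKM (-0.26). Of 7 transcription factors of RNA polymerase I, 2 were called higher (28.6%, beside 27.2% of all genes tested) and 1 lower (14.3%, beside 38.7%), and the median change was 0.03. A share of higher calls so near that of all genes is not a result about this step. The initiation factor RRN3 went from 9.82, 11.7 and 9.77 FPKM to 17.7, 17.4 and 17.2 FPKM (0.69) and UBTF, which binds the ribosomal promoter, from 11.7, 12.8 and 11.0 FPKM to 17.1, 16.9 and 17.7 FPKM (0.51). TAF1D, a subunit of the promoter selectivity factor, fell from 34.6 ± 5.32 to 25.2 ± 2.50 FPKM (-0.44). The calls of TAF1D, EXOSC1 and EXOSC7 were each lost in 1 of 15 alternative analyses.

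MYC, its partner MAX and related factors, MLX and MLXIP among them, were listed because the E-box was searched. Of 11 tested, 3 rose (27.3%), 5 fell (45.5%) and 3 were not called, shares near the 27.2% called higher and 38.7% called lower over all genes tested, so these counts are not a result about the list. MYC was at 47.2, 47.4 and 45.5 FPKM in siNC and 54.9, 56.9 and 52.6 FPKM in siFOXD3, a ratio of 1.17 (log2 fold change 0.23 ± 0.05, limma, adjusted p = 0.00263). This was a small change beside the median of 0.68 of the 55 factors, and near the 0.24 of UTP3, the smallest rise called among them. MYC did not pass a test against a fold of 1.2. Of the 52 factors that rose, 46 passed that test. The 5 that fell were MXD1, MXI1, MXD3, MXD4 and MNT, repressors that pair with MAX in place of MYC. MXI1 went from 13.96, 11.7 and 13.1 FPKM to 6.35, 5.86 and 7.02 FPKM (-0.91 ± 0.09) and MXD3 from 12.4, 9.06 and 10.6 FPKM to 6.74, 6.14 and 5.74 FPKM (-0.69 ± 0.11). MXD1 (18.8 to 14.1 FPKM, -0.39), MXD4 (5.57 to 3.80 FPKM, -0.45) and MNT (8.59 to 6.18 FPKM, -0.41) fell less. MXD4 was not called with quantile normalization (adjusted p = 0.0704) or in the test against a fold of 1.2 (0.127). The calls of MXD1 and MNT were each lost in 1 of 15 alternative analyses. MGA, another large MAX partner, went against these 5 and rose from 6.79 to 8.67 FPKM (0.31), a call lost in 1 of 15 alternative analyses. MAX went from 22.2 ± 2.04 to 25.4 ± 0.726 FPKM (0.19, adjusted p = 0.0381), a call lost in 8 of 15 alternative analyses. Neither the part of MYC activity nor that of FOXD3 in the rise of the ribosome factors was tested.

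**Figure D5:**
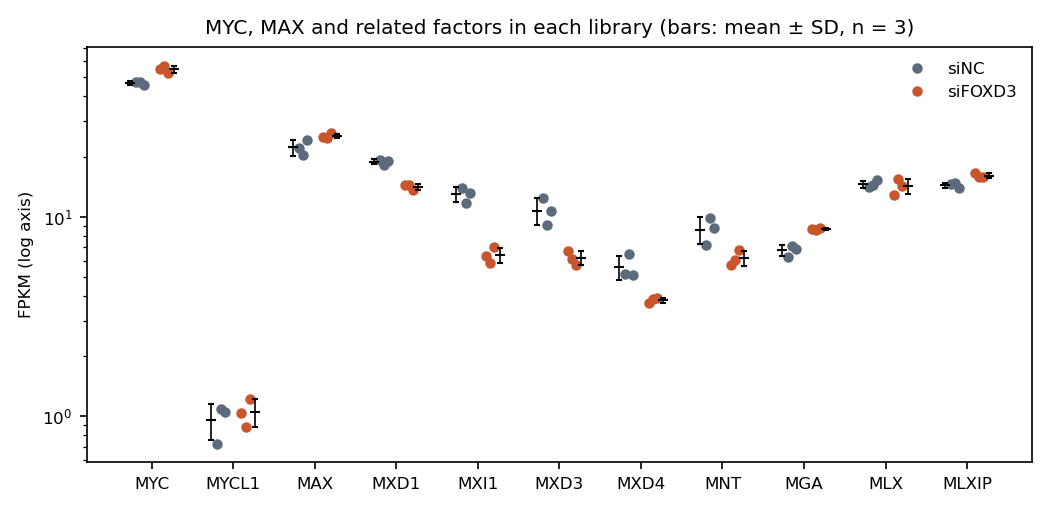
FPKM on a log axis for 11 genes of the MYC and MAX network in each library (points; grey siNC, orange siFOXD3) with the mean ± SD of the group (bars). MXD1, MXI1, MXD3, MXD4 and MNT are lower in all siFOXD3 libraries than in any siNC library, and MYC is higher.

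Shared or overlapping sequence limits some values, since the use of strand in counting is not given in the sources used here. Exons of 12 of the 55 factors overlap, in the GENCODE 29 annotation, those of a gene on the opposite strand that was at 1 FPKM or more. For NOP16 the overlapping gene is HIGD2A, which averaged 159 FPKM in both groups. The overlapping genes of HEATR1 (LGALS8), IMP3 (SNX33), IMP4 (CCDC115), PES1 (TCN2), GNL3 (GLT8D1), NIP7 (COG8) and TSR1 (SRR) were lower in siFOXD3 on average, and those of BRIX1 (RAD1) and RRP7A (SERHL) were higher. On the same strand as DKC1 and within one of its exons by 129 bases lies SNORA56, a small nucleolar RNA that was listed in siFOXD3 replicate 1 alone, at 1092 FPKM. DKC1 itself was at 121 FPKM in that library and at 129 and 119 FPKM in the other siFOXD3 libraries. NOB1 had no such overlap. UTP14A and RRP7A have near copies, UTP14C (4.02 and 4.27 FPKM) and RRP7B (4.98 and 4.91 FPKM), and PPAN is part of a readthrough transcript, PPAN-P2RY11 (1.12 and 1.43 FPKM), that can share reads with them.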

How the data were processed

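Values are FPKM per gene symbol, 1 table per library, deposited by the authors and named so per the file headers; TopHat, Cufflinks and the build hg19 were used, per the submitters' processing notes. For versions, annotation and strand handling: not given in the sources used here. Libraries came from 1 ug of total RNA with a TruSeq kit, per the labels' protocols. Groups and replicate numbers come from the sample titles. Absent symbols were set to 0 and rows of 1 symbol summed.

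R 4.3.3 and limma 3.58.1 (eBayes with trend and robust, group as the only term) were applied to log2(FPKM + 1) of the 12555 genes that reached 1 FPKM in 3 or more of the 6 libraries, called at a two-sided Benjamini-Hochberg adjusted p under 0.05. Fold changes on this scale understate low genes. The fit was also run on simulated data with independent noise and few changed genes. That setting differs from these data, so no conclusion is drawn from it. With 3 libraries per group the smallest exact two-sided permutation p is 0.1, so none is given. The members and lists were chosen with earlier results of these data known. Values per library are given for the members of each role with the largest changes, the most abundant, and those lower or not called. Depth was estimated from steps of low values in 856 genes with 1 transcript of 700 to 4000 bases, assuming fragments of 150 bases, and covers counting error only. Python 3.11.15, pandas 2.3.3, numpy 2.4.6 and matplotlib 3.10.9 were used. Promoter windows matched 48 of 55 factors and 9779 of 11767 protein-coding genes tested. Alternatives covered the pseudocount, filter, scaling, variance model, fold tested, replicate block and each library left out.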

Additional observations from a re-analysis of the deposited data

How the results depend on the processing

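Of the 55 factors, the same 52 were called higher in 11 settings (10 of 15 alternatives), 51 of them with no filter and without siNC replicate 1, siFOXD3 replicate 2 or siFOXD3 replicate 3, and 46 in the test against a fold of 1.2, which called 4297 genes and 2 of the other factors lower; that test asks for a larger change by construction. NOB1 was called lower in all 15 alternatives. The calls of NHP2, NOP10, WDR75, WDR12 and RRP1 were each lost in 1 of the 15. Leaving out 1 library gave 51 to 52 factors called higher, 7278 to 7974 genes called, a median of 0.655 to 0.715 and a ratio of summed FPKM of 1.71 to 1.73. A pseudocount of 5 gave a median of 0.574, and median-of-ratios scaling a ratio for the summed member FPKM of 1.795. Quantile normalization moved the median of all genes from -0.08 to 0.03, so that the 55 stood 0.76 above it as deposited and 0.69 with that scaling; the share of called genes that were higher was 41.3% as deposited, 47.2% with median-of-ratios scaling and 52.6% with quantile normalization (4255 higher and 3835 lower). The signs of RRP1B and RRP8, not called in any setting, changed: the RRP1B log2 fold change was 0.053 and 0.067 with median-of-ratios and quantile scaling and at -0.070 to 0.066 with 1 library left out (0.066, 0.004 and 0.013 without siNC replicate 1, siFOXD3 replicate 2 and siFOXD3 replicate 3), and the RRP8 log2 fold change at 0.022 and 0.169 under those scalings and at -0.108 to 0.087 with 1 library left out (0.087 without siNC replicate 1). Searching the 250 upstream bases alone, an alternative chosen after seeing the data, left CACGTG in 16.7% of factors. With the replicate block, 8172 genes were called, and 52 factors higher and 1 lower; deviations of same-numbered libraries correlated at 0.0613, 0.163 and 0.115, each library correlating best with its own number, a hint from the data that the labels do not state.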
